A study of Mus musculus with 48 samples.

Results

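A set of 9 genes of the fasting response that the nuclear receptor PPAR alpha controls was followed over the day in mouse kidney: the receptor gene Ppara itself and the genes Cpt1a, Pdk4, Angptl4, Cyp4a10, Cyp4a14, Pex11a, Ucp2 and Plin2. They were chosen by name, all 9 of 9 were listed in both assays among 12423 genes, and all 9 passed the minimum level under which the 11863 genes tested were kept. The kidneys came from male C57BL/6JRj mice 11 to 12 weeks old, kept in 12 h of light and 12 h of dark with free access to food, and zeitgeber time 0 (ZT00) is lights-on. At each of 12 timepoints 2 h apart there were 2 replicate lysate pools of 2 mice each, and each pool gave 1 RNA-seq library of its total RNA and 1 RPF-seq library of its ribosome-protected fragments, 48 libraries in all. No group was fasted, so that time of day is the only condition that differed. Mice in a light cycle eat mostly in the dark, so that the end of the rest phase follows the hours of least feeding, but food intake is not among the measurements used here.

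PPAR alpha is a transcription factor that binds fatty acids and pairs with the retinoid X receptor on DNA. When fat is released from adipose tissue during fasting it switches on genes for fatty acid uptake, storage, transport into mitochondria and oxidation. The kidney, and above all its proximal tubule, runs largely on fatty acids and expresses the receptor strongly. RPF-seq counts the mRNA fragments covered by ribosomes and so measures how much of a protein is being made, while the translational efficiency (TE), RPF-seq divided by RNA-seq of the same pool, measures footprints per mRNA.

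Levels are in RPKM (reads in the coding sequence per kilobase and library size, normalised to the upper quartile by the authors), which can be compared between genes. Proximal tubule markers, all 7 of 7 listed, summed to 6259 to 7625 RPKM over the 24 RNA-seq libraries, while none of the 4 adrenal cortex and none of the 3 skeletal muscle markers was listed. Of 7 adipocyte markers 5 were listed, Lep and Retn were not, and Adipoq lay between 0.128 and 3.98 RPKM. Replicate pools correlated with a Spearman rho of 0.985 to 0.996 in RNA-seq and 0.984 to 0.995 in RPF-seq over the genes tested, and no 2 libraries were identical. The values lay on whole multiples of the value of 1 read, from which depth relative to the other libraries of an assay ran from 0.598 to 2.04 in RNA-seq and from 0.701 to 1.58 in RPF-seq, where the median library is 1. The RPF-seq library of ZT04 replicate 2 held the most zeros, 162 genes, and no member was at 0 in any library. The fewest reads behind a value were 98 for Pdk4 in RNA-seq and 149 for Ucp2 in RPF-seq, and read numbers could be a whole multiple of these.

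The members differed widely in level. In RNA-seq the mean over 24 libraries was highest for Cpt1a at 196 ± 31.7 RPKM (SD, n = 24), the enzyme that lets long-chain fatty acids into mitochondria. Cyp4a10, a fatty acid omega-hydroxylase, followed at 140 ± 40.5 RPKM and Plin2, a coat protein of lipid droplets, at 82.0 ± 7.85 RPKM. Ucp2, a carrier of the inner mitochondrial membrane, had 57.7 ± 16.9 RPKM and Ppara 53.2 ± 7.84 RPKM, less apart than their spread. Angptl4, a secreted inhibitor of lipoprotein lipase, had 43.8 ± 14.2 RPKM and Cyp4a14, a second omega-hydroxylase, 36.2 ± 28.7 RPKM, again less apart than their spread. Pex11a, a protein of peroxisome division, had 20.7 ± 2.94 RPKM and Pdk4, the kinase that shuts off pyruvate dehydrogenase, 15.6 ± 9.11 RPKM.

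On the GRCm38 build, Ppara lies at chr15:85734983-85802819 (plus strand), Cpt1a at chr19:3322334-3385733 (plus), Pdk4 at chr6:5483351-5496309 (minus) and Angptl4 at chr17:33773750-33781830 (minus). Pex11a lies at chr7:79735957-79743131 (minus), Ucp2 at chr7:100493337-100502020 (plus) and Plin2 at chr4:86648386-86670060 (minus). Cyp4a14 (chr4:115486200-115496142, minus) and Cyp4a10 (chr4:115518264-115533649, plus) both lie in the Cyp4a cluster.

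**Figure D1:**
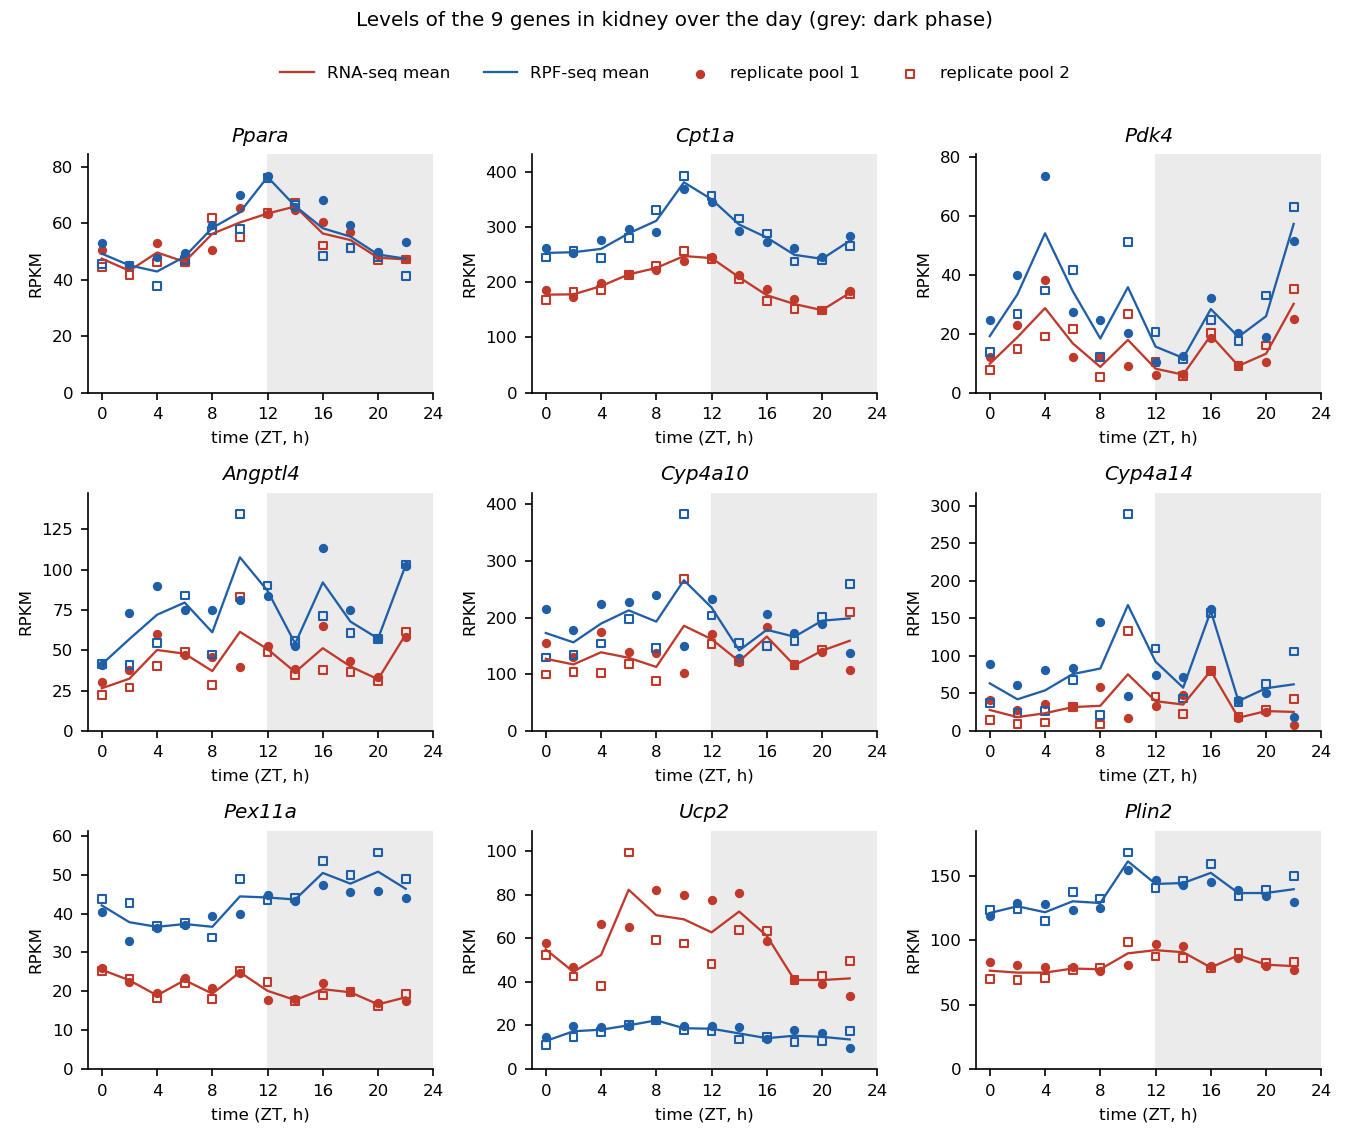
Levels of the 9 genes (RPKM, vertical axes start at 0) against time of day (ZT, h) in RNA-seq (red) and RPF-seq (blue), where filled circles are replicate pool 1, open squares replicate pool 2, lines the mean of both and grey the dark phase. Cpt1a and Ppara form smooth curves with close replicates, whereas the 2 pools of Cyp4a14 lie as far apart as 17.8 and 133 RPKM at ZT10.

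Ppara, the receptor, rose towards lights-off in both assays. Its RNA level was lowest at ZT02 (44.8 and 41.6 RPKM in the 2 pools) and highest at ZT14 (64.6 and 67.4 RPKM). Its footprints were lowest at ZT04 (48.1 and 37.8 RPKM) and highest at ZT12 (76.7 and 76.1 RPKM). The 24-h cosine fitted to the RNA-seq values rose 1.41-fold from trough to peak (0.50 ± 0.07 on the log2 scale, SE, adjusted p = 6.87e-06, limma) with its peak at ZT12.8 ± 0.504 h. In RPF-seq the fold was 1.54 (0.62 ± 0.09, adjusted p = 5.48e-05) with the same peak time of ZT12.8, and the peaks of the 2 assays were 0.026 h apart. All log2 values of fits are on the scale of log2(RPKM + 0.1).

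Cpt1a had the smallest spread between replicate pools among the members. Its RNA was lowest at ZT20 (150 and 149 RPKM) and highest at ZT10 (238 and 257 RPKM), and its footprints were lowest at ZT20 (245 and 239.5 RPKM) and highest at ZT10 (369.7 and 392.3 RPKM). In both assays the 2 pools of ZT10 lay above the 2 pools of ZT20 by far more than pools of one timepoint differed. The fitted fold was 1.49 in RNA-seq (adjusted p = 5.20e-07, limma), just under the limit of 1.5, and 1.39 in RPF-seq (adjusted p = 4.14e-05). The fitted peak stood at ZT9.20 ± 0.419 in RNA-seq and at ZT10.6 ± 0.543 in RPF-seq, that is 1.36 h later, with an SE of 0.686 h if the assays were independent.

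Ucp2 was the member whose RNA passed the full rhythm rule, an FDR under 0.05 with a fold of at least 1.5. Its RNA was highest at ZT06 (65.2 and 99.4 RPKM), where the 2 pools differed most in absolute level, and lowest at ZT20 (38.9 and 42.8 RPKM). The fold was 1.73 in RNA-seq (adjusted p = 0.00122, limma, peak at ZT9.55 ± 0.787) and 1.53 in RPF-seq (adjusted p = 0.0022, peak at ZT8.25 ± 0.781). Plin2 showed a shallow curve with its peak in the early dark phase, of 1.19-fold in RNA-seq (adjusted p = 0.00649, peak at ZT13.9) and 1.21-fold in RPF-seq (adjusted p = 0.00301, peak at ZT14.0).

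By the full rule 1 of 9 members was rhythmic in RNA-seq (Ucp2), against 10.2% of all genes tested, and 2 of 9 in RPF-seq (Ppara and Ucp2), against 7.58%. Without the fold limit there were 4 of 9 in RNA-seq (Ppara, Cpt1a, Ucp2 and Plin2) against 48.6% of all genes, and 5 of 9 in RPF-seq (the same with Pex11a) against 30.9%. The shares of members were thus near those of all genes in RNA-seq. The median fitted fold of the 9 members was 1.41 in RNA-seq and 1.39 in RPF-seq, beside 1.20 and 1.18 over all genes tested, and fewer cells of a type and less RNA per cell cannot be told apart in these tissue lysates. A fitted fold cannot fall under 1, so that spread between pools alone also gives folds above 1. The largest folds in RNA-seq, 2.40 for Cyp4a14 and 2.09 for Pdk4, did not pass the FDR. Without ZT22 replicate 1 the RPF-seq count was 1, since Ucp2 was then below the fold limit at 0.54 on the log2 scale, and it was also below it without ZT00 replicate 2 (0.58). In RNA-seq, Cpt1a passed in addition, and made the count 2, when ZT00 replicate 1, ZT08 replicate 1 or either pool of ZT22 was left out.

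**Figure D2:**
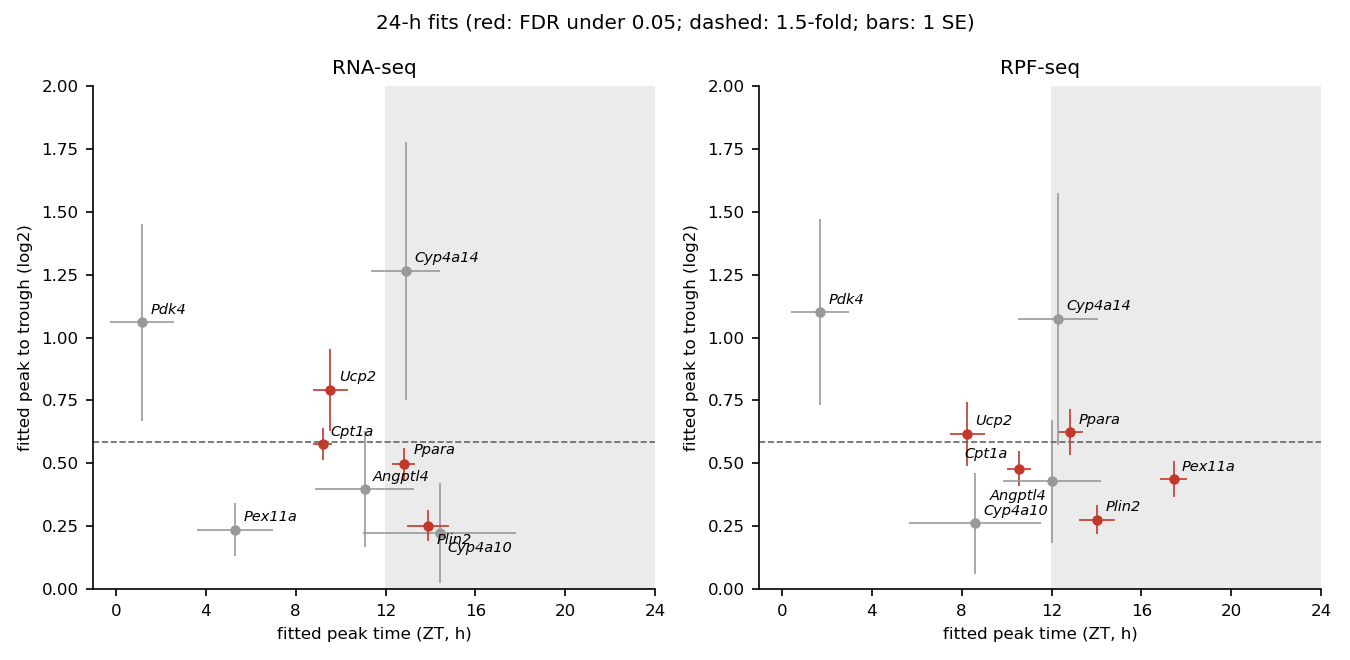
Fitted peak time (ZT, h) and fitted peak-to-trough difference (log2) of the 9 genes in RNA-seq (left) and RPF-seq (right), with bars of 1 SE, red where the FDR was under 0.05 and a dashed line at a fold of 1.5. Cpt1a and Ucp2 peak before lights-off, Ppara close to it and Plin2 after it, and Pdk4 and Cyp4a14 have the largest fitted differences with the widest bars.

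Pdk4 was the member with its fitted peak closest to lights-on. Its RNA timepoint means ran from 6.11 RPKM at ZT14 to 30.1 RPKM at ZT22, a fold of 4.93, and its footprints from 11.8 RPKM at ZT14 to 57.2 RPKM at ZT22. Single pools ran from 5.30 RPKM (ZT08 replicate 2) to 38.3 RPKM (ZT04 replicate 1), the latter beside 19.0 RPKM in the other pool of ZT04. The cosine fit gave 2.09-fold in RNA-seq with its peak at ZT1.17 ± 1.41 (adjusted p = 0.0734, limma) and 2.14-fold in RPF-seq with its peak at ZT1.70 ± 1.28 (adjusted p = 0.0651), past the fold limit but not the FDR. It passed in RNA-seq when ZT00 replicate 2, ZT10 replicate 2 or either pool of ZT16 was left out (adjusted p from 0.0224 to 0.0466), and in RPF-seq when ZT00 replicate 2, ZT10 replicate 2 or ZT16 replicate 1 was left out (adjusted p from 0.0154 to 0.0446). A test for any difference between the 12 timepoints, which assumes no curve, called Pdk4 in both assays (adjusted p = 0.0134 in RNA-seq and 0.0336 in RPF-seq).

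That test called 5 of 9 members in RNA-seq (Ppara, Cpt1a, Pdk4, Pex11a and Ucp2) against 31% of all genes, and 5 of 9 in RPF-seq (Ppara, Cpt1a, Pdk4, Angptl4 and Plin2) against 12.8%. Angptl4 had timepoint means between 26.4 RPKM at ZT00 and 61.4 RPKM at ZT10 in RNA-seq, and between 41.3 and 108 RPKM at the same times in RPF-seq (adjusted p = 0.0569 and 0.0447). Neither omega-hydroxylase was called in either assay (Cyp4a10 adjusted p = 0.775 and 0.801, Cyp4a14 0.517 and 0.608).

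The end of the rest phase (ZT08, ZT10 and ZT12) was then compared with the end of the active phase (ZT20, ZT22 and ZT00), with 6 libraries in each window. Ppara, Cpt1a and Ucp2 were higher at the end of the rest phase in both assays, 3 of 9 members against 13% of all genes tested in RNA-seq and 3 of 9 against 6.24% in RPF-seq. Cpt1a RNA had 222, 240 and 257 RPKM as the lowest, median and highest value of the late rest libraries and 149, 173 and 187 RPKM in the late active ones, without overlap. The fold was 1.42 in RNA-seq (0.50 ± 0.05, SE, adjusted p = 1.11e-06, limma) and 1.35 in RPF-seq (0.43 ± 0.05, adjusted p = 1.78e-05), where the windows did not overlap either (291.6 to 392.3 against 239.5 to 284 RPKM). In how many of all genes tested the windows do not overlap was not counted, here and for Ppara below. By limma 26.4% of all genes differed between these windows in RNA-seq, in either direction.

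Ppara RNA had 50.6, 62.6 and 65.5 RPKM as the lowest, median and highest of the late rest libraries and 44.6, 47.2 and 50.4 RPKM in the late active ones. The windows did not overlap, though by a narrow margin, and the fold was 1.26 (0.33 ± 0.06, adjusted p = 0.00142, limma). In RPF-seq the late rest libraries lay between 57.5 and 76.7 RPKM and the late active ones between 41.5 and 53.5 RPKM, a fold of 1.36 (0.44 ± 0.09, adjusted p = 0.00322).

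Ucp2 RNA had 48.0, 68.2 and 82.1 RPKM in the late rest libraries and 33.7, 46.1 and 57.6 RPKM in the late active ones, so that the windows overlapped. The fold was 1.47 (0.55 ± 0.16, adjusted p = 0.0158, limma), and the difference in RPF-seq was 0.55 ± 0.14 (adjusted p = 0.0149). The Ucp2 call was lost in RNA-seq when ZT08 replicate 1, ZT12 replicate 1 or ZT22 replicate 1 was left out (adjusted p from 0.0531 to 0.0581) and in RPF-seq without ZT20 replicate 2 or ZT22 replicate 1 (0.0538 and 0.0517).

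The other 6 members did not pass in either assay, and their windows overlapped. Pdk4 was the one with the lower level at the end of the rest phase in RNA-seq, with a median of 9.65 RPKM against 13.97 RPKM and a difference of -0.63 ± 0.27 (adjusted p = 0.0980, limma). Angptl4 differed by 0.36 ± 0.18 (adjusted p = 0.144) and Plin2 by 0.12 ± 0.06 (adjusted p = 0.151), while Cyp4a14 differed by 0.62 ± 0.55 (adjusted p = 0.427), a larger difference with a far larger error. Leaving out ZT10 replicate 2 or ZT08 replicate 1 in RNA-seq added Pdk4 (-0.89, adjusted p = 0.0143, and -0.83, adjusted p = 0.0457), whereas leaving out ZT10 replicate 1 added Angptl4 (0.53, adjusted p = 0.0219) and Plin2 (0.17, adjusted p = 0.0473), a count of 5. With both windows 2 h earlier Ppara no longer passed in either assay (0.12, adjusted p = 0.150, in RNA-seq and 0.16, adjusted p = 0.234, in RPF-seq), whereas Pex11a passed in both (0.29, adjusted p = 0.00175, in RNA-seq and -0.30, adjusted p = 0.0143, in RPF-seq). With both 2 h later Ucp2 no longer passed in RPF-seq (0.32, adjusted p = 0.162), whereas Pdk4 (-0.93 in RNA-seq, adjusted p = 0.0267, and -0.87 in RPF-seq, adjusted p = 0.0466) and Plin2 (0.24, adjusted p = 0.0139, and 0.22, adjusted p = 0.0101) passed in both. In either direction, 41.5% of all genes tested passed in RNA-seq with windows 2 h earlier and 16.7% with windows 2 h later. With the main windows 26.4% passed, and 29.5%, 19.5% and 24.3% without ZT10 replicate 2, ZT08 replicate 1 and ZT10 replicate 1. In RPF-seq 14.7%, 11.2% and 11.7% passed with the earlier, later and main windows. The median difference over the 9 members was 0.33 in RNA-seq and 0.38 in RPF-seq, beside 3.92e-04 and 0.01 over all genes tested.

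A group of 5 members varied more between the 2 pools of one timepoint than most genes did in both assays. The SD between replicate pools was 0.14 (log2) for the median gene in RNA-seq and 0.16 in RPF-seq. For Cyp4a14 it was 1.13 in RNA-seq, rank 2 among the 11863 genes tested from the most variable, and 1.084 in RPF-seq, rank 20. Pdk4 had 0.56 (rank 101) and 0.55 (rank 284), Cyp4a10 0.43 (rank 344) and 0.44 (rank 607), and Angptl4 0.36 (rank 654) and 0.34 (rank 1253). Ucp2 had 0.32 in RNA-seq (rank 922) and 0.27 in RPF-seq (rank 2086). Ppara, Pex11a and Plin2 had 0.11, 0.10 and 0.11 in RNA-seq and Cpt1a had 0.07, all under the median gene of that assay. In RPF-seq Ppara had 0.17, a little above the median gene, while Pex11a (0.14), Plin2 (0.08) and Cpt1a (0.08) lay under it. Counting error was far smaller: at the 160 reads of the lowest Cyp4a14 library it comes to an SD of 0.11 (log2), and at the 98 reads of the lowest Pdk4 library to 0.15.

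**Figure D3:**
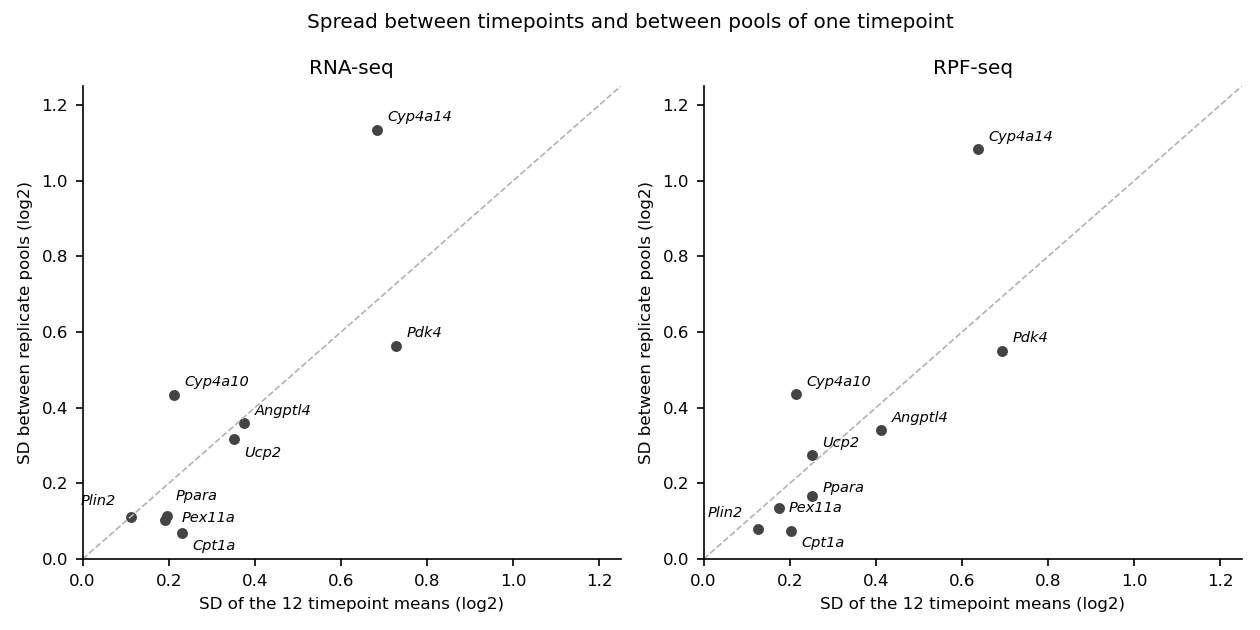
SD between the replicate pools of one timepoint (log2, vertical axis) against the SD of the 12 timepoint means (log2, horizontal axis) for the 9 genes in RNA-seq (left) and RPF-seq (right), with a dashed line where both are equal. Cyp4a14 and Cyp4a10 lie above the line in both assays (1.13 against 0.68 for Cyp4a14 in RNA-seq), and Cpt1a far below it (0.07 against 0.23).

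Timepoint accounted for 95.4% of the variance of Cpt1a in RNA-seq, 84.7% for Ppara and 86.4% for Pex11a, but for 39.9% for Cyp4a14 and 30.3% for Cyp4a10. Where timepoints do not differ at all this share is 47.8% on average with 12 timepoints of 2 libraries. The largest difference between pools of Cyp4a14 was at ZT10, with 17.8 RPKM (352 reads) in replicate 1 and 133 RPKM (3949 reads) in replicate 2, a fold of 7.42. In RPF-seq the same pools had 46.6 and 289 RPKM, a fold of 6.18. At ZT08 the order was the other way round, with 58.4 RPKM in replicate 1 and 8.57 RPKM in replicate 2, and at ZT22 it was 7.67 and 42.8 RPKM. The pools were collected over 2 daily cycles by the study's methods, and which pool belongs to which cycle is not given in the sources used here.

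The pool of ZT10 replicate 2 held the highest value of 5 of 9 members in RNA-seq (Cpt1a, Angptl4, Cyp4a10, Cyp4a14 and Plin2) and of the same 5 in RPF-seq. How many of all genes tested had their highest value in this pool was not counted, so this describes the members alone. Angptl4 had 39.9 and 82.9 RPKM in the 2 pools of ZT10, Cyp4a10 103 and 269 RPKM, and Pdk4 8.97 and 26.8 RPKM. Ppara and Ucp2 were lower in replicate 2 (55.1 against 65.5 RPKM and 57.6 against 79.8 RPKM). Summed proximal tubule markers had 6535 RPKM in replicate 1 and 6259 RPKM in replicate 2, the lowest of 24 libraries, hepatocyte markers 34.4 and 23.7 RPKM, also the lowest, and thick ascending limb markers 3129 and 2523 RPKM, the lowest as well. Adipocyte markers had 143 and 129 RPKM, of which Fabp4, which endothelial cells also express, made up 131.7 and 117.7 RPKM. The other listed adipocyte markers went both ways, with Adipoq at 0.312 and 1.24 RPKM, Cidec at 0.752 and 1.64 RPKM, Cfd at 9.12 and 7.84 RPKM and Plin1 at 0.695 and 0.396 RPKM. Macrophage markers had 36.8 and 32.3 RPKM (replicate 2 at rank 2 of 24 from the lowest), and podocyte markers 80.6 and 73.3 RPKM (rank 7). Other lists were higher in replicate 2: endothelial markers with 97.1 and 123 RPKM (rank 22) and collecting duct principal cell markers with 183 and 234 RPKM (rank 21). Distal convoluted tubule markers had 360 and 380 RPKM (rank 19), and intercalated cell markers 151 and 178 RPKM (rank 17). Relative depth was 0.787 and 1.18 in RNA-seq. The part of these marker and depth differences in the members' values was not tested.

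Differences between pools were nearly the same in the 2 assays for the members that varied most. Over the 12 timepoints, the log2 difference between replicate 1 and replicate 2 in RNA-seq correlated with that in RPF-seq with Pearson r = 0.993 and Spearman rho = 0.965 for Cyp4a14, with a permutation p adjusted over the 9 members of 3e-05 and 1.2e-04, the first from the smallest p that 100000 permutations can give. For Cyp4a10 r was 0.979 (rho = 0.958) and for Pdk4 0.968 (rho = 0.944), with the same adjusted permutation p-values. For Angptl4 r was 0.880 (rho = 0.783, adjusted permutation p = 3.82e-04 and 0.00824). Without the 2 timepoints farthest from the median of the RNA-seq differences, r was 0.988 for Cyp4a14, 0.903 for Cyp4a10, 0.954 for Pdk4 and 0.813 for Angptl4. For Ppara (r = 0.596), Cpt1a (0.500), Plin2 (0.548), Ucp2 (0.445) and Pex11a (0.144) the adjusted permutation p of r ran from 0.0678 to 0.653, and Ucp2 had r = -0.266 without ZT06 and ZT22. By rho Ppara passed (rho = 0.685, adjusted permutation p = 0.0309), and the adjusted permutation p of rho for the other 4 ran from 0.105 to 0.428.

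The sign of a difference depends on which pool bears which number, so an exact test that swaps the 2 pools within timepoints in all 4096 ways was added. It gave an adjusted p of 0.0102 for Cyp4a14 and Pdk4, 0.00879 for Cyp4a10, 0.0466 for Angptl4, 0.0198 for Ucp2 and 0.0483 for Ppara. For the other 3 members it was 0.137 to 0.864. Both libraries of a pool come from 1 lysate, and the reads of Cyp4a10 and Cyp4a14 share no stretch of 28 coding bases. How common such correlations between the assays are among genes other than the members was not tested.

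**Figure D4:**
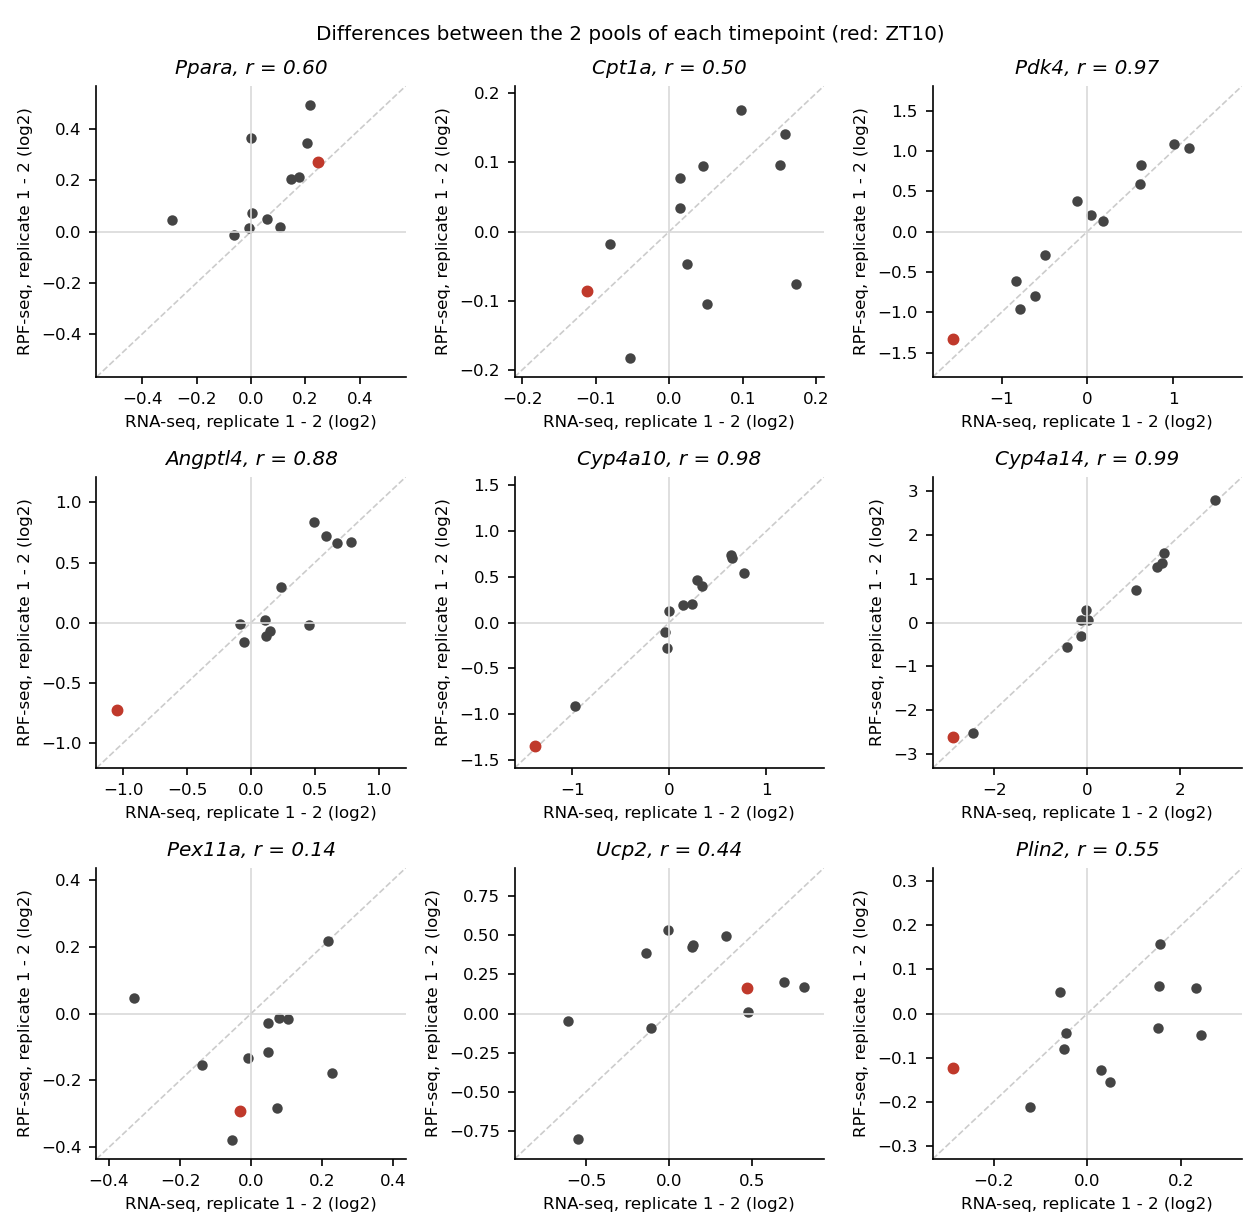
Difference between replicate pool 1 and replicate pool 2 (log2) in RPF-seq (vertical) against RNA-seq (horizontal), 1 point for each of 12 timepoints and red for ZT10, with a dashed line of equality and Pearson r above each panel. Points of Cyp4a14, Cyp4a10 and Pdk4 follow the line over a wide range (Cyp4a14 r = 0.99), and those of Pex11a do not (r = 0.14).

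The same members also differed together from pool to pool by the permutation test, but not by the exact swap test after adjustment. Over 36 pairs of members, the RNA-seq differences between pools correlated with an adjusted permutation p under 0.05 in 7 pairs, all positive: the 6 pairs among Pdk4, Angptl4, Cyp4a10 and Cyp4a14, and Cyp4a10 with Plin2. The largest were Cyp4a10 with Cyp4a14 (r = 0.915, rho = 0.874, adjusted permutation p = 0.0036) and Pdk4 with Cyp4a14 (r = 0.883, rho = 0.867, adjusted permutation p = 0.0036). Without the 2 farthest timepoints these were 0.738 and 0.759, and the pair of Cyp4a10 with Plin2 was 0.337 from 0.766. In RPF-seq 5 pairs passed, the 6 named first without Angptl4 and Cyp4a14 (r = 0.696, adjusted permutation p = 0.0724). By Spearman's rho 6 of the 7 pairs passed in RNA-seq and 1 pair, Pdk4 with Cyp4a14, in RPF-seq. In the exact swap test the 7 pairs had unadjusted p-values under 0.05, but no pair passed adjustment in either assay, with 0.0703 the smallest in RNA-seq. Pairs of other genes were not tested in either way, so no share over all genes stands beside these counts. With timepoint means in place of pool differences, as a description over 12 timepoints, r was 0.698 for Cyp4a10 with Cyp4a14, 0.672 for Angptl4 with Cyp4a10, 0.490 for Pdk4 with Angptl4, 0.366 for Pdk4 with Cyp4a10, 0.361 for Angptl4 with Cyp4a14, 0.327 for Cyp4a10 with Plin2 and -0.08 for Pdk4 with Cyp4a14.

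Cyp4a10 needs care, because 62.7% of the 28-base stretches of its coding sequence occur in transcripts of other genes, 54.5% in Cyp4a32 alone. How reads shared between genes were assigned was not tested, and its values may hold reads of Cyp4a32. The figure was 5.02% for Cyp4a14, 12.7% for Plin2 (in Gm12551) and 0.165% for Pdk4, and 0 for Ppara, Cpt1a, Angptl4, Pex11a and Ucp2. The first 60 coding bases of Cyp4a10 (GRCm38, chr4:115518322-115518381, plus strand), Cyp4a32 (chr4:115600975-115601034, plus strand) and Cyp4a14 (chr4:115496054-115496113, minus strand) show how close the genes are, and capitals mark the bases that differ from Cyp4a10, 1 in Cyp4a32 and 24 in Cyp4a14.
Cyp4a10: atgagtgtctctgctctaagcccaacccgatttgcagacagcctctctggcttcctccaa
Cyp4a32: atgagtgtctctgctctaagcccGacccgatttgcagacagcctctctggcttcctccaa
Cyp4a14: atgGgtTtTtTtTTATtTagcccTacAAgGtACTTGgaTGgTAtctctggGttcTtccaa

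Pex11a was the member whose footprints and RNA went apart. Its RNA was highest at ZT00 (25.98 and 25.13 RPKM) and lowest at ZT20 (17.1 and 16.2 RPKM), while its footprints were highest at ZT20 (45.8 and 55.7 RPKM) and lowest at ZT04 (36.4 and 36.8 RPKM). The cosine fit gave 1.18-fold in RNA-seq (adjusted p = 0.153, limma) and 1.35-fold in RPF-seq (adjusted p = 1.97e-04, peak at ZT17.4 ± 0.619). The test for any difference between timepoints called its RNA (adjusted p = 0.00488) and gave 0.0626 for its footprints. Its TE ran from 1.58 and 1.68 at ZT06 to 2.69 and 3.44 at ZT20, and from ZT14 to ZT22 each of the 10 libraries lay above each of the 12 from ZT00 to ZT10. This split leaves out ZT12, where the 2 pools lay at 2.51 and 1.94, in both ranges. It is not that of the windows compared above, and how many of all genes separate in this way was not counted.

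The TE rhythm of Pex11a was 1.60-fold (0.67 ± 0.12, SE, adjusted p = 0.00273, limma) with its peak at ZT17.4 ± 0.675, and it passed in each of the 24 fits without a single library. It was the 1 of 9 members that passed the full rule for TE, against 3.74% of all genes tested. Without the fold limit 3 of 9 passed against 17.1%, with Cyp4a10 at 1.26-fold (adjusted p = 0.0413, peak at ZT5.82) and Cpt1a at 1.16-fold (adjusted p = 0.0281, peak at ZT17.7). The number of RNA-seq reads behind Pex11a was 118 to 442. With 1 replicate series alone the TE test called 0 genes without replicate 1 and 2 genes without replicate 2 among all genes tested, so that it says nothing about Pex11a, whose fitted difference was then 0.72 and 0.64 on the log2 scale. The test for any difference between timepoints gave an adjusted p of 0.0581.

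**Figure D5:**
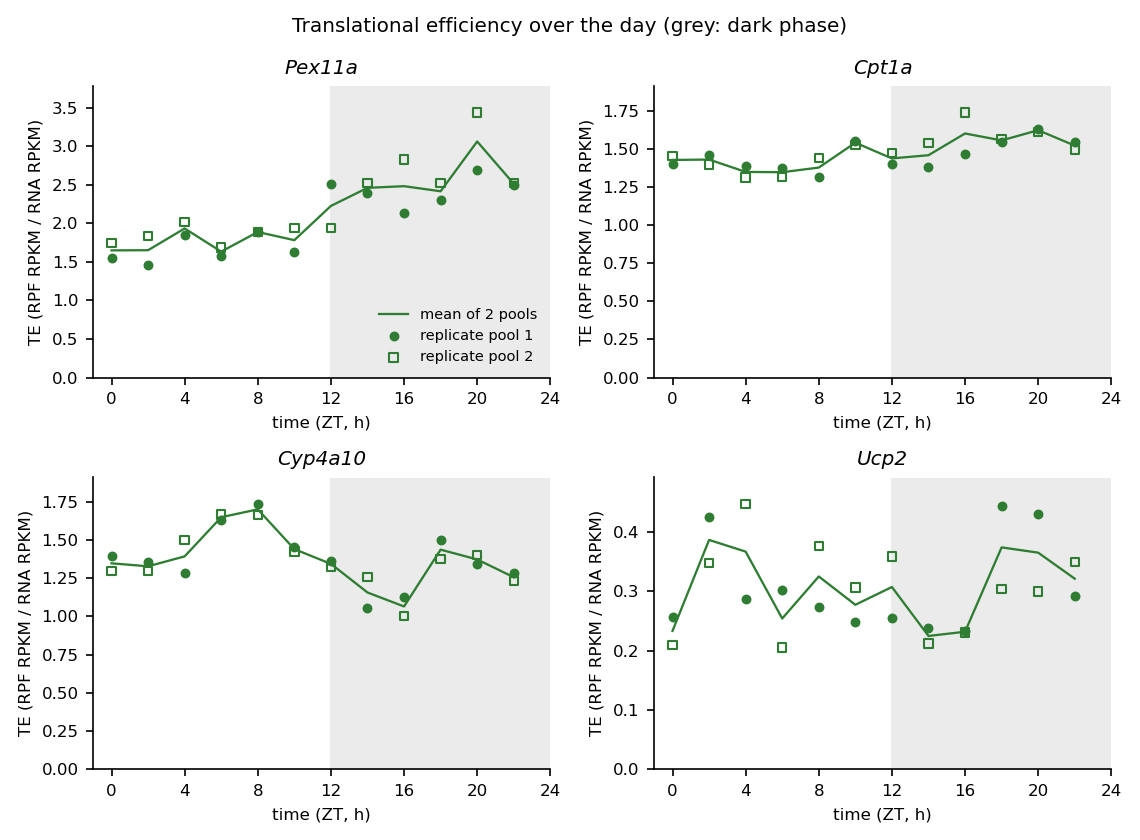
TE (RPF-seq RPKM divided by RNA-seq RPKM, axes start at 0) of Pex11a, Cpt1a, Cyp4a10 and Ucp2 against time of day (ZT, h), with filled circles for replicate pool 1, open squares for replicate pool 2, a line through their mean and grey for the dark phase. Pex11a lies below 2.02 from ZT00 to ZT10 and above 2.13 from ZT14 on, with 2.51 and 1.94 at ZT12, and Ucp2 stays under 0.45 throughout.

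Between the end of the rest phase and the end of the active phase no member changed in TE by limma (0 of 9, with 2 at an unadjusted p under 0.05, Cyp4a10 and Pex11a), against 1.96% of all genes. Cyp4a10 differed by 0.17 ± 0.06 (adjusted p = 0.134) and Pex11a by -0.25 ± 0.10 (adjusted p = 0.148). With both windows 2 h earlier these passed, at 0.24 for Cyp4a10 (adjusted p = 0.0220) and -0.58 for Pex11a (adjusted p = 0.00258), 2 of 9 members beside 14.3% of all genes tested with these windows. For Ppara, Cpt1a and Ucp2, which rose in both assays, the TE differences were 0.11 ± 0.08, -0.07 ± 0.06 and -2.62e-04 ± 0.16, none past the threshold.

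In mean TE the members stood apart from each other more than over the day. Ucp2 had 0.306 ± 0.0765 (SD, n = 24), at the percentile 5.24 of the genes tested, so that its mean rank among the members changed from the fourth in RNA-seq to the last in RPF-seq (16.9 ± 3.46 RPKM). Cyp4a14 had 2.27 ± 0.267 (percentile 97.2), Pex11a 2.14 ± 0.484 (96.3), Pdk4 1.93 ± 0.225 (93.7), Plin2 1.68 ± 0.139 (89.2) and Angptl4 1.68 ± 0.180 (89.2). Cpt1a had 1.47 ± 0.108, Cyp4a10 1.37 ± 0.184 and Ppara 1.03 ± 0.0965, the last near the median gene at 0.956.

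Of the 9 members 6 had a promoter in the RefSeq table for GRCm38.p6 (Ppara, Cpt1a, Pdk4, Pex11a, Ucp2 and Plin2), and the 250 bases before each start were searched on both strands. PPAR alpha with its partner binds a direct repeat of AGGTCA-like half-sites with 1 base between them. That direct repeat 1, with any base at the fourth place of each half-site and between them, was in none of the 6 windows and in 0.338% of 32851 promoters of the same length. The single half-site AGGTCA, which many nuclear receptors bind, was in the windows of Plin2 and Cpt1a and in 14.02% of all promoters, and it does not overlap the CCAAT box found in the windows of Plin2, Pdk4 and Cpt1a and in 33.8% of all. The clock motifs CACGTG (6.02% of all) and TTATGNAA (3.07%) and the glucocorticoid half-site AGAACA (16.1%) were in none of the 6. The letters of both half-sites, read as their complement on the gene's strand, are in capitals in 66 bases around them, from -248 to -183 before the start of Plin2 (GRCm38.p6, chr4:86670242-86670307, minus strand) and from -124 to -59 before that of Cpt1a (chr19:3323177-3323242, plus strand), shown because these 2 windows were the ones with a match. The RefSeq start used for Cpt1a lies 967 bases downstream of the start of the gene as given above, so that this stretch is upstream of an inner start.
Plin2: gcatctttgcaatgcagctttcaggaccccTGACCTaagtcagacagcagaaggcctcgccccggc
Cpt1a: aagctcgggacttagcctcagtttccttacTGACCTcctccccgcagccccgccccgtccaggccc

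Genes with the RNA pattern most like each member's were then named, up to 2 for each by Pearson r over the 24 RNA-seq libraries, as a description. For Ppara they were Usp2 (r = 0.916) and the clock gene Per1 (0.860), and for Cpt1a Accs (0.941) and Stxbp2 (0.925). For Cyp4a10 Retsat, a retinol saturase, had r = 0.841, and for Cyp4a14 Vnn1, a pantetheinase, had 0.780. Angptl4 had Ang (0.763) and again Retsat (0.729), which ran from 148.6 to 289.1 RPKM with its highest value in ZT10 replicate 2. Pdk4 had Trpm6 (0.788) and Plau (0.768), Pex11a Srcap (0.802) and Hmbox1 (0.756), Ucp2 Cadm4 (0.872) and Man2b2 (0.863), and Plin2 Decr2 (0.806) and Fcgrt (0.794). All points share the libraries and their scaling.

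Other genes of the pathway were taken from 6 lists. Of 15 genes of mitochondrial fatty acid oxidation and ketogenesis, and of 14 tested genes of peroxisomal oxidation and omega-hydroxylation, 0 passed the rhythm rule by limma in RNA-seq, RPF-seq or TE. Of all genes tested 10.2%, 7.58% and 3.74% passed it, so that few calls could be looked for in lists of this size. Without the fold limit 6 and 5 passed in RNA-seq, beside 48.6% of all genes. Their median folds in RNA-seq were 1.16 and 1.17, under the 1.20 of all genes.

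In the list of receptors, partners and coregulators, Ppard, the sister receptor PPAR delta, had a fold of 6.58 (adjusted p = 7.65e-12, limma) with its peak at ZT0.72, on the other side of the day from Ppara. In RPF-seq Ppard had a fold of 8.85 (peak at ZT23.8) and the coactivator Lpin1 1.51 (peak at ZT11.4). Ppard also passed in TE (1.79-fold, adjusted p = 0.00736, limma, peak at ZT20.3).

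Of 14 genes of fatty acid uptake, activation and lipid droplets, 4 passed in RNA-seq, beside 10.2% of all genes tested. Pnpla2, the first lipase of lipid droplets, had a fold of 1.88 (adjusted p = 1.17e-07, limma, peak at ZT8.14), Slc27a1, a fatty acid transporter, 1.64 (adjusted p = 4.44e-06, peak at ZT8.25), and Plin5, a coat protein of lipid droplets, 1.86 (adjusted p = 8.22e-04, peak at ZT9.06). Cpt1a and Ucp2 have their fitted RNA peaks at ZT9.20 and ZT9.55. The fourth, Cidec, is also an adipocyte marker (0.199 to 2.98 RPKM). In RPF-seq 5 passed (Fabp1, Fabp3, Plin5, Pnpla2 and Cidec), and in TE 1 (Fabp1), beside 7.58% and 3.74% of all genes tested. The median fold of the list was 1.40 in RNA-seq and 1.45 in RPF-seq.

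Of 10 other fasting and PPAR alpha target genes, 4 passed in RNA-seq and the same 4 in RPF-seq, beside 10.2% and 7.58% of all genes tested. Tsc22d3, a glucocorticoid target, had 4.37-fold (adjusted p = 1.46e-12, limma, peak at ZT15.7), G6pc, which releases glucose, 1.83-fold (adjusted p = 5.61e-06, peak at ZT20.0), Pck1, of gluconeogenesis, 2.30-fold (adjusted p = 3.71e-05, peak at ZT14.7), and Txnip 1.73-fold (peak at ZT4.98). Of 9 paralogs of the members, 1 passed in RNA-seq, Pdk2 with 1.53-fold (adjusted p = 0.00262, limma) and its peak at ZT8.96, and 0 in RPF-seq or TE, where 3 and 1 had an FDR under 0.05. Of all genes tested 10.2%, 7.58% and 3.74% passed in RNA-seq, RPF-seq and TE. An FDR under 0.05 was reached by 30.9% in RPF-seq and 17.1% in TE. Pdk2 codes for another kinase of pyruvate dehydrogenase, and the fitted peak of Pdk4 was at ZT1.17. The genes of RPF-seq and TE, with Cidec and Txnip, were named after their values were seen.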

How the data were processed

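Kidney lysate pools of 2 mice were profiled at 12 timepoints with 2 replicates by RNA-seq and RPF-seq. The authors trimmed reads with Cutadapt, aligned them with Bowtie2 2.2.1 and TopHat2 2.0.11 to GRCm38.p2 with Ensembl 75, and deposited RPKM values over coding sequences after upper-quantile scaling. Genes with a median of at least 0.5 RPKM in both assays were kept (11863 of 12423), and log2(RPKM + 0.1) was fitted with limma 3.58.1 in R 4.3.3: a 24-h cosine, any difference between timepoints, and late rest minus late active phase. TE was tested as the interaction of assay and time. P-values were adjusted by Benjamini-Hochberg over all genes tested (FDR 0.05). On simulated data 96% of 2-fold changes were recovered for the RNA-seq rhythm and 88% for the TE rhythm, by FDR without the fold limit. Of these calls 6.80% and 6.38% were false. Smaller changes were not simulated. Permutation tests used scipy 1.17.1. Reads were recovered from the RPKM steps to within 0.02 of a whole read (394 and 364 of 400 low genes tried came out whole in RNA-seq and RPF-seq), and counting errors cover counting only. The members and lists were chosen with earlier results of these data known. From each list up to 3 genes were named by RNA-seq adjusted p, and up to 2 genes most like each member, and some results are not reported here. The labels give replicates as separate pools and do not name the mice in each, so p-values measure the spread between these pools. Alternatives covered pseudocount, minimum level, normalisation, curve, windows and left-out libraries.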

Additional observations from a re-analysis of the deposited data

Results flagged for a closer look

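Pex11a differed between the 2 assays under the same comparison over the day: the TE rhythm, which is the test of the difference between RPF-seq and RNA-seq, was 0.67 on the log2 scale (adjusted p = 0.00273, limma). The fitted peaks were at ZT5.31 in RNA-seq, where the rhythm itself did not pass (adjusted p = 0.153), and at ZT17.4 in RPF-seq (adjusted p = 1.97e-04).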

How the results depend on the processing

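Another pseudocount (0.01), no minimum level, a minimum of 2 RPKM and the replicate block changed none of the 6 counts of members called. In RNA-seq 2 members were rhythmic after quantile normalisation or with a 12-h harmonic (Cpt1a and Ucp2), 3 by choice of model by AIC (Pdk4, Cyp4a14 and Ucp2), 4 with no fold limit and 5 by any difference between timepoints, in place of 1. The shares of all genes tested were 9.53%, 14.8%, 10.9%, 48.6% and 31.0% in the order named, beside 10.2% in the main setting. In RPF-seq there was 1 with a pseudocount of 1 (Ppara), and 5 with no fold limit or by any difference, in place of 2. The shares of all genes were 4.97%, 30.9% and 12.8%, beside 7.58%. In TE there were 3 with no fold limit and 0 by any difference, in place of 1, where the shares were 17.1% and 0.851%, beside 3.74%. With windows 2 h later 5 members differed in RNA-seq in place of 3 (Pdk4 lower, and Plin2 added). The share of all genes went from 26.4% to 16.7%. With windows 2 h earlier 2 members differed in TE in place of 0, where the share of all genes went from 1.96% to 14.3%. Leaving out a library or a replicate gave 1 to 2 rhythmic members in RNA-seq, 1 to 3 in RPF-seq and 0 to 1 in TE, and 0 to 5, 0 to 3 and 0 members that differed between windows in RNA-seq, RPF-seq and TE.

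For the TE rhythm and for the windows in RNA-seq and RPF-seq, the count of 0 came from leaving out a whole replicate, which leaves 1 library a timepoint and few calls among all genes (for the TE rhythm 0 without replicate 1 and 2 without replicate 2, and for the RNA-seq windows 30 without replicate 1). In RNA-seq, Ucp2 was not rhythmic without replicate 1 (adjusted p = 0.367, limma), where Cpt1a was. Ppara did not differ between windows in either assay with 1 replicate alone (adjusted p from 0.0769 to 0.181). The replicate block kept the same members, and the labels do not say that a number marks a shared cycle or batch. Deviations of same-numbered pools correlated at 0.029 in RNA-seq and 0.020 in RPF-seq on average, from -0.18 to 0.48 and from -0.20 to 0.19, and over 0.1 in 13 and 10 of 66 pairs of timepoints, so that the numbers were not taken as pairs. The cause of these changes was not tested. The lowest read numbers in RNA-seq were those of Pdk4 and Pex11a, 98 and 118 in a library.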
